A study of Homo sapiens with 2 samples.

Results

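The genes described here are 10 genes of the integrated stress response, taken from a single comparison of 2 cultures. They are ATF4, ATF3, DDIT3 (which encodes CHOP), CEBPB, CHAC1, TRIB3, ASNS, PSAT1, SESN2 and PPP1R15A. They were selected by gene symbol from the table of all genes, and the choice was made with their ratios between these same libraries known, so those ratios are a description and no list-wide direction is a result. Of the 10, 9 were among the 28038 genes of the table used here, and all 9 passed the minimum of 50 counts over both libraries, as did 14157 genes in all. SESN2, the stress-induced sestrin that restrains mTORC1 when leucine is short, was not analysed here.

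The cells were labelled OVCAR-3, an established human ovarian carcinoma line. The control culture had received an empty viral vector, and the other culture overexpressed IGF2BP3, a protein that binds messenger RNA, m6A-marked transcripts among it, and steadies it. Each group is 1 library of poly(A) RNA, of 43190215 counts in the control and 48017861 in the overexpression library. With 1 library per group there is no spread between cultures and no test, and every difference is between these 2 libraries. Neither the promoter of the vector nor whether the cells were a pool or a clone is given in the sources used here. IGF2BP3 itself went from 67.9 to 133 CPM (counts scaled to library size, with TMM factors), a ratio of 1.96 with a 95% counting interval of 1.88 to 2.05, so the labels and the transcript point the same way and the control already held it.

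The labelled cell type was checked against its defining markers. Of 11 epithelial markers, 8 were listed and only KRT18, at 103 and 102 CPM, reached 10 CPM. CDH1 had 2 counts in each library. Of 8 ovarian serous and Mullerian markers, 3 were listed and none reached 10 CPM, and their summed level was 0.831 and 0.940 CPM. Of 8 mesenchymal and fibroblast markers, all 8 were listed and 3 reached 10 CPM, with a summed level of 2256 and 2229 CPM, of which the filament VIM made up 2175 and 2149. Of 8 leukocyte and endothelial markers, 4 were listed, with a summed level of 0.0923 and 0.209 CPM. The epithelial and Mullerian markers were thus mostly at low counts or not listed in cells that carry an ovarian carcinoma label. The summed levels of the epithelial list were alike in both libraries, at 109 and 107 CPM. How reads shared between genes were counted is not known here, and overlaps of the markers were not checked. A low count of a marker therefore need not mean low expression. Whether the identity of the cells bears on the stress genes was not tested.

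The integrated stress response begins when 1 of several kinases phosphorylates the initiation factor eIF2. General translation then slows, while upstream open reading frames let ATF4 protein be made more efficiently. ATF4 is a bZIP transcription factor that switches on amino acid synthesis, amino acid transport and, with sustained stress, DDIT3, whose product CHOP turns on further genes. Since ATF4 and CHOP are controlled in good part at translation and protein stability, their messenger RNA levels describe only part of the pathway. The targets carry composite sites for C/EBP and ATF proteins, and PPP1R15A feeds back by bringing a phosphatase to eIF2.

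Sites of these factors were looked for in RefSeq promoter windows (build GRCh38.p14), which run from 250 bases before to 50 bases after each start and which matched all 10 genes. The core of the C/EBP-ATF response element was searched as TGATGNAA on both strands, and the cyclic AMP response element, which ATF and CREB proteins bind, as TGACGTCA, which reads the same on both. They are shown because CHAC1, the gene with the lowest ratio, and ASNS, the gene with the highest, both hold the first. Each run is 30 bases on the strand of the gene, with the match in capitals.
CHAC1: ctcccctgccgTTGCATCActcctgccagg
ASNS: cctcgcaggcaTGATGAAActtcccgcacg
ATF3: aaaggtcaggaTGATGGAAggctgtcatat
PPP1R15A: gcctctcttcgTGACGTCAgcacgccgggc
The CHAC1 run lies at chr15:40953251-40953280 on the plus strand and holds the element in reverse, its match beginning 209 bases before the RefSeq start. The ASNS run, at chr7:97872458-97872487 on the minus strand, begins its match 68 bases before a RefSeq start. Both runs lie inside the gene spans printed below, which are those of GENCODE and begin further upstream. ATF3 has 2 windows, and the match lies in the one of an upstream start, at chr1:212565205-212565234. The PPP1R15A run is at chr19:48872352-48872381, with the match 58 bases before the start.

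No window of ATF4, DDIT3, CEBPB, TRIB3, PSAT1 or SESN2 held either of those letter strings, which says nothing about sites outside these windows or of other letters. The C/EBP-ATF core was in 3.62% of all 35116 promoter windows and the cyclic AMP element in 1.85%. Genes with the C/EBP-ATF core did not stand lower as a group, though a letter match does not show that ATF4 binds there. The 263 tested ones had a median log2 ratio of 0.03, against 0.01 over the 10153 tested genes with a window.

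Of the 9 genes, 8 were lower in the overexpression library and 1, ASNS, was higher. Among all tested genes 48.9% were lower. CHAC1, DDIT3, CEBPB and ATF3 had ratios from 0.453 to 0.765, PPP1R15A, ATF4, PSAT1 and TRIB3 lay between 0.884 and 0.954, and ASNS was at 1.15 with an interval, 0.748 to 1.77, that reaches into both ranges. On the scale of log2 CPM plus 1, used below for counts of genes, only CHAC1 was at least 1.5-fold lower, a size that 0.643% of tested genes reached, and none was 1.5-fold higher, against 1.02%. A log2 ratio of -0.32 or less was found for CHAC1, DDIT3, CEBPB and ATF3, against 3.51% of tested genes, and one of 0.32 or more for none, against 4.64%. The median log2 ratio of the 9 genes was -0.17, and that of all tested genes 0.00. Since the 9 genes were chosen with their ratios known, these counts and this median only describe them.

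**Figure D1:**
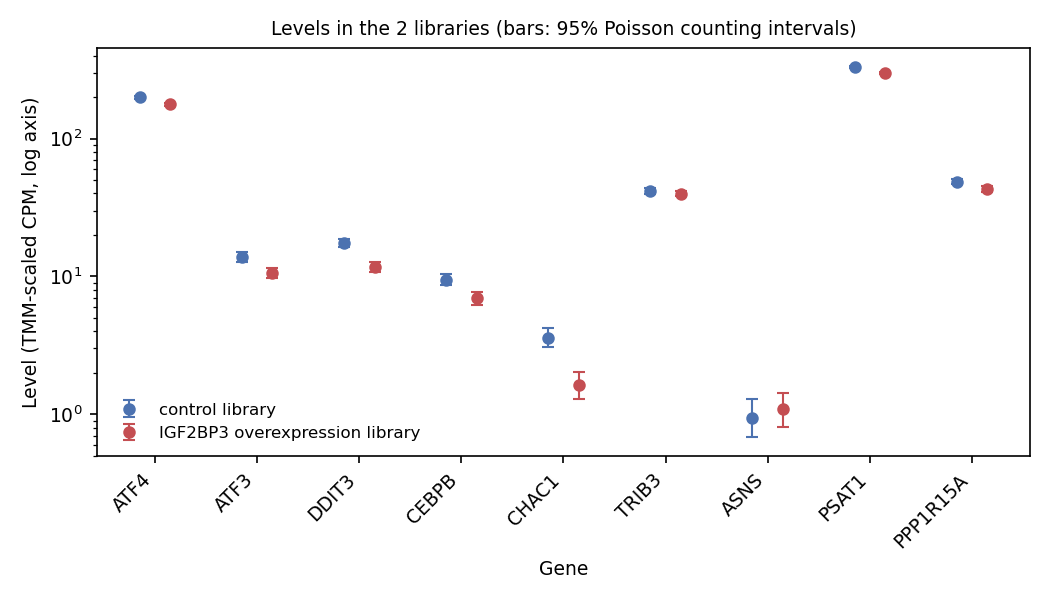
Level of each of the 9 genes in both libraries, as TMM-scaled CPM on a log axis, with 95% Poisson counting intervals. The intervals of the 2 libraries overlap for TRIB3 and ASNS and for none of the other 7 genes.

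The transcription factors are described first. ATF4 (ENSG00000128272; GRCh38 chromosome 22, 39519695 to 39522685, plus strand) is the factor through which the eIF2 kinases act. It had 8605 counts in the control and 8484 with overexpression, 199 and 177 CPM. The ratio was 0.893, with a counting interval of 0.866 to 0.920. ATF4 was thus slightly lower with overexpression, by more than counting error. Of its 31-base words, 37.5% recur at other loci, most of them in the pseudogene ATF4P3, so reads could be lost or split and its level is uncertain.

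DDIT3 (ENSG00000175197; chromosome 12, 57516588 to 57521737, minus strand) encodes CHOP, the bZIP factor tied to cell death under prolonged ER stress. It had 755 and 558 counts, 17.4 and 11.7 CPM. The ratio was 0.669 (0.599 to 0.747), and 0.571 to 0.783 from halved counts, the interval that would hold if both mates of each read pair had been counted. DDIT3 was just short of the 1.5-fold size, at 1.46-fold lower on the scale of CPM plus 1. Only 0.826% of tested genes had a lower log2 ratio. It shares 27.2% of its exon bases with MARS1 on the opposite strand, and MARS1 had a log2 ratio of -0.24. A further 4.44% are shared with MBD6 on the opposite strand, and 8.03% with AC022506.1 on the same strand. The libraries mark strand, but whether the counting used it is not known here, nor how reads shared on 1 strand were counted. Reads of MARS1 could therefore enter DDIT3, and the value of DDIT3 is uncertain.

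ATF3 (ENSG00000162772; chromosome 1, 212565334 to 212620777, plus strand), a stress-induced bZIP factor that ATF4 switches on, had 600 and 507 counts. Its level was 13.8 and 10.6 CPM, and its ratio 0.765 (0.678 to 0.862). CEBPB (ENSG00000172216; chromosome 20, 50190734 to 50192689, plus strand), a bZIP factor that pairs with ATF4 and with CHOP, had 411 and 331 counts, 9.49 and 6.92 CPM. Its ratio was 0.729 (0.629 to 0.845). Both factors were thus lower with overexpression, and their intervals overlap each other. An antisense gene, CEBPB-AS1, covers 11.8% of the exon bases of CEBPB and had 40 and 49 counts.

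CHAC1 (ENSG00000128965; chromosome 15, 40952962 to 40956519, plus strand), a glutathione-degrading enzyme and a target of the ATF4 and CHOP cascade, had the lowest ratio. It had 156 counts in the control and 78 with overexpression, 3.60 and 1.63 CPM. The ratio was 0.453 (0.340 to 0.598), and halved counts gave an interval of 0.300 to 0.673. The difference was thus larger than counting error on either reading, at a level low enough that the added constant matters: CHAC1 was 1.75-fold lower on the scale of CPM plus 1, and its log2 ratio of -0.81 became -1.10 with a constant of 0.1 CPM and -0.38 with 5 CPM. Only 0.396% of tested genes had a lower log2 ratio. The related CHAC2, the constitutive member of this enzyme family, stood at 33.9 and 35.6 CPM.

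TRIB3 (ENSG00000101255; chromosome 20, 362835 to 397559, plus strand), the pseudokinase that ATF4 and CHOP induce and that dampens their activity, had 1804 and 1902 counts. Its level was 41.6 and 39.7 CPM, a ratio of 0.954 with an interval of 0.894 to 1.02 that includes 1. A difference in TRIB3 was therefore not detectable at this depth. Of its relatives, TRIB1 had a log2 ratio of 0.12 and TRIB2 of 0.13.

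PSAT1 (ENSG00000135069; chromosome 9, 78297143 to 78330093, plus strand), the aminotransferase of serine synthesis, had 14238 and 14408 counts. Its level was 329 and 301 CPM and its ratio 0.916 (0.895 to 0.938). The other enzymes of this pathway are PHGDH, which starts it, and PSPH, which ends it. PHGDH had a ratio of 0.908 (0.870 to 0.948), and PSPH had a log2 ratio of -0.05. Of the 31-base words of PSAT1, 15.6% recur elsewhere, mainly in its pseudogenes.

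ASNS (ENSG00000070669; chromosome 7, 97852118 to 97872542, minus strand), the asparagine synthetase and a textbook ATF4 target, was listed with 41 and 52 counts. Its level was 0.946 and 1.09 CPM and its ratio 1.15 (0.748 to 1.77), so no difference was detectable at this depth. Another gene on the same strand (AC079781.5, ENSG00000284707) holds 44.6% of the exon bases of ASNS and 96.1% of its coding bases, and was itself listed with 6 counts in each library. How reads that lie in both genes were counted is not known here. The low level of ASNS therefore cannot be read as low expression, and its part among the 9 genes is uncertain.

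PPP1R15A (ENSG00000087074; chromosome 19, 48872392 to 48876057, plus strand) encodes GADD34, the stress-induced subunit that directs a phosphatase to eIF2 and so restarts translation. It had 2106 and 2057 counts, 48.6 and 43.0 CPM. The ratio was 0.884 (0.832 to 0.940), close to that of ATF4. PPP1R15B, the constitutive counterpart, had 214 and 217 CPM.

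**Figure D2:**
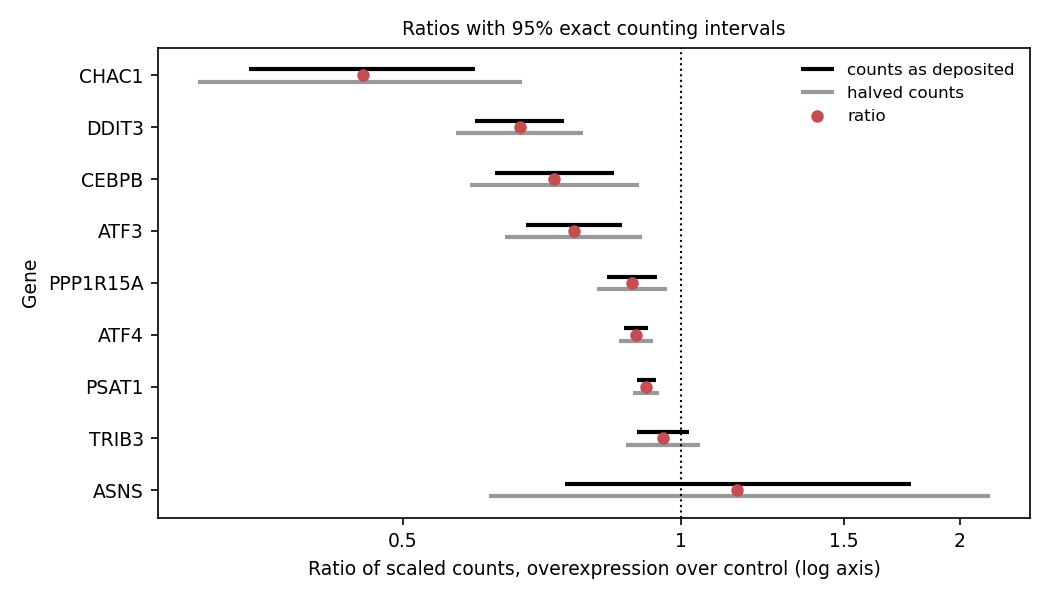
Ratio of scaled counts, overexpression over control, for each of the 9 genes on a log axis, with 95% exact counting intervals from the counts as deposited (black) and from halved counts (grey). The intervals of CHAC1, DDIT3, CEBPB, ATF3, PPP1R15A, ATF4 and PSAT1 lie below 1 in both versions, and those of TRIB3 and ASNS include 1.

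Halved-count intervals lay wholly below 1 for 7 of the 9 genes, against 10.9% of tested genes, and wholly above 1 for none, against 15.9%. Intervals narrow as counts rise, and these shares cover genes of all levels, so they are not matched to the 9 genes. The 9 genes were also chosen with their ratios known, so the count of 7 describes them and is not a result. These intervals cover counting error only and not the spread between cultures. Because poly(A) RNA of a whole culture was measured, fewer cells making a transcript and less of it per cell cannot be told apart.

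Relative to ATF4 within each library, a comparison that needs no scaling, the genes again differed among themselves. DDIT3 had 8.77% as many counts as ATF4 in the control and 6.58% with overexpression, a ratio of ratios of 0.750 with an exact 95% interval of 0.668 to 0.841. For CHAC1 the shares were 1.81% and 0.919%, a ratio of ratios of 0.507 (0.381 to 0.671). CHAC1 and DDIT3 were lower relative to ATF4 with overexpression by more than counting error, also with halved counts, where the intervals ended at 0.756 and 0.884. The genes were chosen with their ratios known, so these values describe them only. ATF4 and DDIT3 are also uncertain for the shared sequence and exon bases given above. For CEBPB the ratio of ratios was 0.817 (0.702 to 0.949) and for ATF3 0.857 (0.757 to 0.970), but with halved counts both intervals passed 1, at 1.01 and 1.02. Those of PPP1R15A, at 0.991 (0.925 to 1.06), PSAT1, at 1.03 (0.988 to 1.07), TRIB3 and ASNS included 1.

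Compared per length, as the FPKM that the authors deposited, the order of the levels was nearly the same in both libraries. PSAT1 was highest, at 149 FPKM in the control and 136 with overexpression. ATF4 followed, at 76.2 and 67.6 FPKM. PPP1R15A, DDIT3 and TRIB3 lay close together in the control library, at 14.2, 13.4 and 12.7 FPKM. In the overexpression library PPP1R15A and TRIB3 stood at 12.5 and 12.0 FPKM and DDIT3 at 8.89 FPKM, so DDIT3 passed from above TRIB3 to below it. CEBPB was at 5.17 and 3.75 FPKM, ATF3 at 3.47 and 2.64, CHAC1 at 1.76 and 0.792 and ASNS at 0.194 and 0.221. The log2 fold changes in the authors' deposited table had the same signs for all 9 genes and ran from -1.15 for CHAC1 to 0.19 for ASNS.

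The genes with the lowest ratios also had fewer counts, and genes with few counts spread more. Of the 3986 tested genes with a mean level under 5 CPM, where CHAC1 lies, 1.56% were at least 1.5-fold lower and 8.68% had a log2 ratio of -0.32 or less. Between 5 and 20 CPM, the range of DDIT3, CEBPB and ATF3, 3.97% of 2799 genes had one of -0.32 or less. From 100 CPM upward, where ATF4 and PSAT1 lie, the share was 0.353%. In that top range 9.34% of 2269 genes had a log2 ratio of -0.1 or less, as ATF4 and PSAT1 did.

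**Figure D3:**
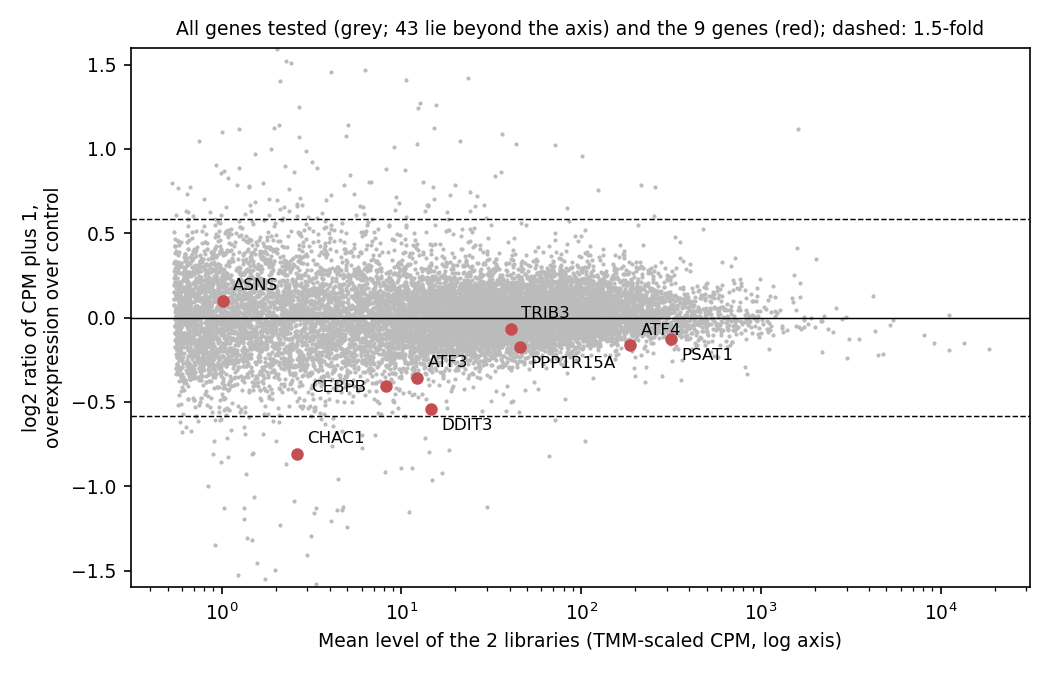
Log2 ratio between the libraries, on CPM plus 1, against the mean level on a log axis, for all 14157 genes tested (grey, 43 of them beyond the axis) and the 9 genes (red). CHAC1 lies beyond the dashed 1.5-fold line, DDIT3 just inside it, and the spread of all genes narrows toward high levels.

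GC content moved with the ratio across all genes. The 1381 tested genes of lowest transcript GC content, up to 38.4%, had a median log2 ratio of 0.08, and the 1381 of highest, from 61.2%, one of -0.06. CHAC1, at 62.6% GC, and CEBPB, at 66.2%, are in that highest range, and DDIT3, at 49.7%, and ATF3, at 46.7%, are near the middle. With the trends over GC content and gene length removed, the log2 ratio was -0.74 for CHAC1, -0.52 for DDIT3, -0.36 for ATF3 and -0.34 for CEBPB, so these values were nearly as large. ATF4 went from -0.16 to -0.11, and TRIB3 from -0.07 to -0.01.

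Upstream of ATF4, the eIF2 kinases and their regulators stood on the other side of 0. Of 9 measured genes 8 were higher and 1 lower, against 51.1% higher among all tested genes. None was 1.5-fold different, where 0.643% of all tested genes were that much lower and 1.02% higher. The median log2 ratio was 0.11, or 0.04 with GC and length trends removed. EIF2AK2, the double-stranded RNA kinase PKR, was 1.20-fold higher (1.16 to 1.24). EIF2AK4, the amino acid sensor GCN2, was 1.11-fold higher (1.08 to 1.14), and EIF2AK3, the ER stress kinase PERK, 1.10-fold (1.02 to 1.18), although its halved-count interval, 0.987 to 1.22, includes 1. EIF2AK1, the heme-regulated kinase, was at 195 and 199 CPM. OMA1, the mitochondrial protease that relays stress to it, was 1.15-fold higher (1.06 to 1.24). With GC and length trends removed, the log2 ratio went from 0.26 to 0.15 for EIF2AK2 and from 0.15 to 0.10 for EIF2AK4. For EIF2AK3 it went from 0.13 to 0.05 and for OMA1 from 0.19 to 0.17. The 1 lower gene, named after its value was seen, was DELE1, the mitochondrial protein that OMA1 cleaves, at -0.10. These transcript levels say nothing about the activity of the kinases.

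The eIF2 and eIF2B subunits and the phosphatase differed little. Of 12 measured genes 5 were above 0 and 7 below, where 48.9% of all tested genes lay, with a median of -0.02. EIF2S1, the subunit that the kinases phosphorylate, was at 330 and 329 CPM. The genes furthest from 0 were EIF2B5 at -0.13, EIF2S2 at -0.09, EIF2B3 at -0.08 and PPP1CA at -0.08.

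Among bZIP partners and relatives of ATF4, 11 of 19 measured genes were above 0 and 8 below, with a median log2 ratio of 0.02. Among all tested genes 48.9% were below 0. ATF5, which is regulated at translation much as ATF4 is, had a log2 ratio of -0.22, and CEBPG, a partner of ATF4, was at 97.3 and 86.0 CPM, a log2 ratio of -0.18. JUN stood at -0.25 and JUNB at -0.23, while CREB1 was at 0.23 and FOSB, from 63 and 109 counts, at 0.42. Immediate early genes, the class to which ATF3 is often counted, had 5 of 17 measured genes above 0 and 12 below. Their median was -0.09, and the share of all tested genes below 0 was 48.9%. Of the 17 measured, KLF10 stood at -0.38, GADD45A at -0.24, IER2 at -0.17 and EGR1 at -0.15. FOS, at 0.10, and FOSB, JUN and JUNB were counted among the bZIP genes and not here. None of the immediate early genes was 1.5-fold different, where 0.643% of all tested genes were that much lower and 1.02% higher.

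The other metabolic targets of ATF4 had medians slightly below 0. For amino acid synthesis and one-carbon genes it was -0.07, with 3 of 10 measured genes above 0 and 7 below. Among all tested genes 48.9% were below 0. CBS, which makes cystathionine from homocysteine, was the only one of the list at least 1.5-fold lower, against 0.643% of all tested genes. It had 1023 and 636 counts, a ratio of 0.563 (0.509 to 0.622). It is uncertain, since 95.3% of its 31-base words recur in its copy CBSL. SHMT2, the mitochondrial serine hydroxymethyltransferase, had a ratio of 0.857 (0.828 to 0.887), and ALDH1L2 had a log2 ratio of 0.12. PYCR1 and ASS1, of proline and arginine synthesis, were each listed with 2 and 0 counts, too few to use. Other genes share 14.1% of the exon bases of PYCR1 on the same strand and 15.6% on the opposite. How shared reads were counted is not known here, so its low count cannot be read as low expression.

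Amino acid transporters had 4 of 9 measured genes above 0 and 5 below, where 48.9% of all tested genes lay. The transporter median was -0.10, or -0.04 with GC and length trends removed. SLC7A11, the cystine importer, stood apart from the others at 3602 and 5587 counts, a ratio of 1.40 (1.35 to 1.46). SLC3A2, the heavy chain with which it pairs, was on the other side of 0, at 0.855 (0.823 to 0.889). SLC7A5, the leucine importer that uses the same chain, was at 0.879 (0.834 to 0.926), and SLC6A9 had a log2 ratio of -0.13. SLC7A11, which supplies cysteine for glutathione, and CHAC1, which breaks glutathione down, thus lay on opposite sides of 1.

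Cytosolic aminoacyl-tRNA synthetases, many of which ATF4 induces, had 3 of 12 measured genes above 0 and 9 below. Their median was -0.13, and the share of all tested genes below 0 was 48.9%. IARS1 was the only one at least 1.5-fold lower, a size that 0.643% of all tested genes reached. It had 4177 and 476 counts, a ratio of 0.103 (0.0936 to 0.113). On the log2 scale it stood at -3.15, far from MARS1 at -0.24, YARS1 at -0.21 and SARS1 at -0.20. The counts and FPKM of IARS1 imply a length of 22418 bases, against 7401 exon bases in the GENCODE annotation. Overlaps were checked only for the latter, so the value of IARS1 is uncertain. The halved-count intervals of 8 of the 12 lay below 1 and of 1 above, where 10.9% and 15.9% of all tested genes lay. The amino acid synthesis list had 4 below and 1 above, and the transporters 3 and 3. Intervals narrow as counts rise, and the shares cover genes of all levels, so they are not matched to these lists.

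Of 19 other measured targets of ATF4 and CHOP 12 were above 0, where 51.1% of all tested genes lay, and 7 below, with a median of 0.07. The halved-count intervals of 3 lay above 1 and of 4 below, against 15.9% and 10.9% of all tested genes, whatever their level. SQSTM1, the autophagy receptor p62, was 4.48-fold higher (3.95 to 5.11), from 287 and 1421 counts. On the scale of CPM plus 1 it was the only one at least 1.5-fold different, and 1.02% of all tested genes were at least 1.5-fold higher. MRNIP, on the opposite strand, shares 20.7% of the exon bases of SQSTM1, so the value of SQSTM1 is uncertain. GDF15, a secreted stress factor, had 76 and 128 counts and a log2 ratio of 0.42. Without the added constant its ratio was 1.52 (1.14 to 2.05), with a halved-count interval of 1.005 to 2.34. The sestrins SESN1 and SESN3, relatives of SESN2, were at 0.08 and 0.22, ERO1A, the ER oxidase that CHOP induces, at 0.20, and the mTORC1 inhibitor DDIT4 at 0.05.

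The arms of the unfolded protein response that do not run through eIF2 held genes on both sides of 0. Genes of the IRE1 and XBP1 arm had 8 of 13 above 0, where 51.1% of all tested genes lay, and 5 below. The median of this arm was 0.05. Halved-count intervals lay wholly above 1 for 5, against 15.9% of all tested genes, and below 1 for 1, against 10.9%. Intervals narrow as counts rise, and these shares cover genes of all levels. XBP1 had 91.3 and 87.9 CPM, SEC24D stood at 0.33, SEL1L at 0.24, DNAJB9 at 0.20 and SYVN1 at -0.17. HERPUD1, of ER-associated degradation, was at -0.12. Of 11 measured genes of the ATF6 arm and ER chaperones 4 were above 0 and 7 below, with a median of -0.02. Among all tested genes 48.9% were below 0. The halved-count intervals of 4 of the 11 lay above 1 and of 2 below. HSPA5, the chaperone BiP that rises with ER stress, was at 992 and 950 CPM, a log2 ratio of -0.06. The others lay between -0.10, for CALR, and 0.11, for PDIA6, with SDF2L1 at -0.07 and MANF at -0.06. HYOU1, an ER chaperone, was listed with 2 and 0 counts and gave no ratio. An antisense gene shares 8.66% of its exon bases, and how shared reads were counted is not known here. The low count of HYOU1 therefore cannot be read as low expression.

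**Figure D4:**
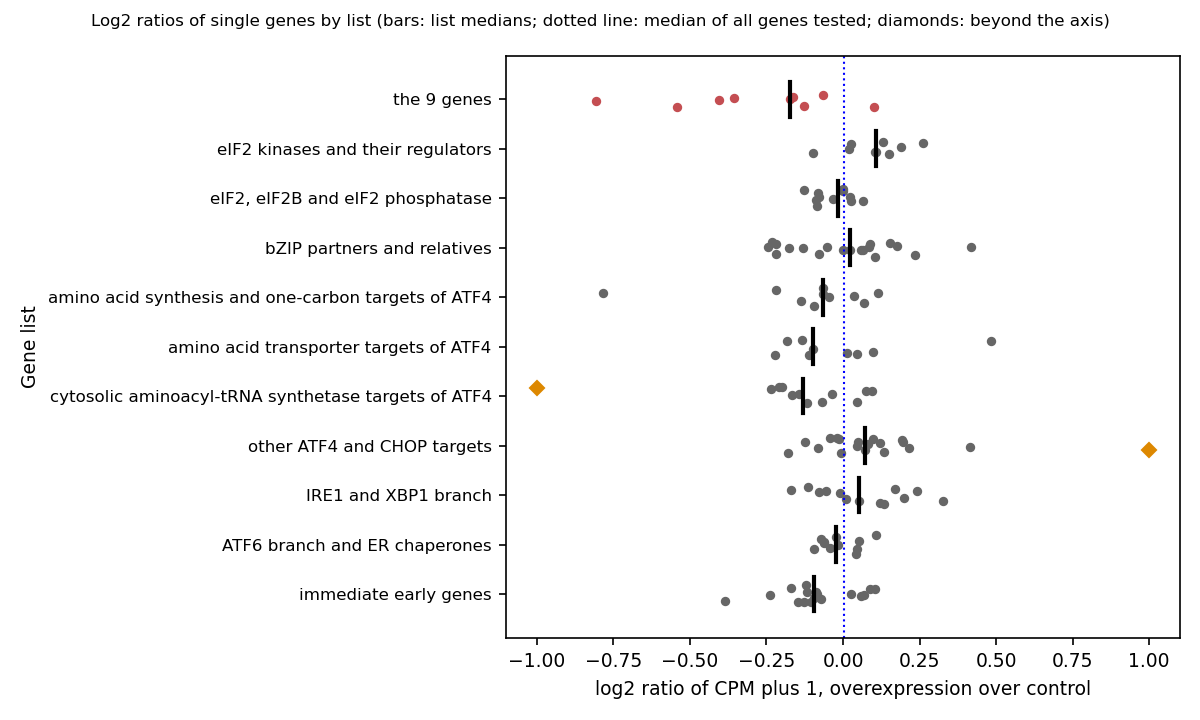
Log2 ratio of CPM plus 1 for each measured gene, grouped by list, with list medians (black bars) and the median of all genes tested (dotted line). The 9 genes have the lowest median, -0.17, and were chosen with these ratios known, while IARS1 and SQSTM1 (diamonds) lie beyond the axis.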

How the data were processed

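The authors deposited whole-number counts per gene, FPKM values and a log2 fold change, per the file headers, for 1 control and 1 overexpression library. Libraries were made from oligo(dT)-captured RNA with dUTP strand marking, per the labels' protocols. GRCh38 is the build in the submitters' processing notes, while the sources used here name no aligner, counter, strand setting or annotation. Of small counts (1 to 20), 64.1% in the control and 63.3% with overexpression were even, as would arise from counting both mates of a pair, so intervals are also given from halved counts.

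Scaling used TMM (edgeR 4.0.16, R 4.3.3). The log2 ratio compares CPM plus 1, with a minimum of 50 counts over the 2 libraries. Ratios are of scaled counts, with 95% exact Clopper-Pearson intervals, and those relative to ATF4 have exact conditional intervals of the odds ratio (scipy 1.17.1). Molecular identifiers are not described, so intervals cover counting error alone. No p-value was computed. Positions, overlaps, GC content and shared 31-base words came from GENCODE release 29, which gave GC content for 97.5% of tested genes. Trends were removed by lowess (fraction 0.3, statsmodels 0.14.6). The 10 genes and the 10 other lists were chosen with earlier results of these data known. Named genes were those 10, the 4 of each other list furthest from 0 and genes named for their role; ASS1, PYCR1, HYOU1, DELE1 and VIM were added after their values were seen. Alternatives were library totals, DESeq2 1.42.0 size factors, other constants, minimums and thresholds, and FPKM plus 1. Scripts were tested on simulated data.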

Additional observations from a re-analysis of the deposited data

How the results depend on the processing

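The count of genes at least 1.5-fold lower, 1 in the values above, was 0 with a constant of 5 CPM, 0 with a threshold of 2-fold on CPM plus 1 and 4 with a log2 threshold of 0.32, while it stayed 1 under the other 7 settings run. No gene was 1.5-fold higher under any of them. The median log2 ratio of the 9 genes ran from -0.27, with a minimum of 200 counts that leaves ASNS out, to -0.15 with GC and length trends removed. Each of the 9 genes kept its sign in every setting run. CHAC1 ran from -1.10 to -0.38, DDIT3 from -0.58 to -0.43, CEBPB from -0.45 to -0.28 and ATF3 from -0.38 to -0.27. Of the list medians, that of the bZIP partners passed 0, from 0.023 to -0.001 with the trends removed. Scaling by library totals or DESeq2 size factors left the counts of the 9 genes below 0 and 1.5-fold different as they were, while the share of all tested genes below 0 went from 48.9% to 51.0% and 47.6%, and the counts above and below 0 in the other lists were not recomputed. No paired analysis was possible because each group has 1 library. ASNS, at 41 and 52 counts, and CHAC1, at 156 and 78, are limited by depth. With 1 culture per group, differences between cultures and those of overexpression cannot be told apart.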
